A study of Homo sapiens with 6 samples.

Results

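The genes described here are the 5 subunits of the transcription factor NF-kB (NFKB1, NFKB2, REL, RELA and RELB) and 5 genes that it switches on. The latter are grouped here as feedback inhibitors (NFKBIA, NFKBIE, NFKBIZ, TNFAIP3 and BIRC3). The list was chosen by gene name with the knockdown-minus-control fold changes of these arrays in view, and its members were then taken through every probe set to which the platform annotation gives exactly 1 symbol. This found 15 probe sets of 9 genes, 8 for the subunits and 7 for the inhibitors, among 49293 probe sets and 18132 genes in all. The expression of BIRC3 was not analysed here, since it had no such probe set, and only its promoter was searched. The members' values in that contrast are therefore a description, with adjusted p-values carried over from the fit to all genes, and are not independent support for anything.

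RNA came from U87, an established human glioma line grown in DMEM with fetal bovine serum. The samples were 3 arrays of U87 cells transduced to express a hairpin RNA that targets PCGF1 (U87-PCGF1-shRNA, lentiviral, named T0 in the labels) and 3 arrays of U87 cells transduced with negative control lentivirus (U87-NC, named T1). PCGF1 is a Polycomb protein of a repressive chromatin complex. The labels do not explain T0 and T1, whose meaning cannot be told apart from the knockdown, and the sources used here give neither the number of hairpins nor that of cell clones. The sample titles call the 3 arrays of each group biological replicates but do not say whether these were separate cultures or transductions. The p-values measure the spread between these arrays. PCGF1 signal was -0.27, -0.13 and -0.19 in the knockdown arrays, against 0.13, 0.27 and 0.29 in the control arrays. This is 74.3% of the control level (95% interval 67.8 to 81.5%). The value rests on 1 probe set and stood at place 82 from the lowest among all genes. The deposited values are taken here as RMA log2 signals, and every percentage of the control level rests on that reading. Each probe set is centred on the median of its 6 arrays, so the values compare arrays with each other and carry no information on a gene's level of expression. For the same reason the presence of glial markers could not be checked. Of 8 astroglial and glioma markers 0 were called changed at an adjusted p under 0.05 by limma, and of 9 leukocyte markers 1 was called higher and 1 lower.

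NF-kB is a dimer of proteins that share the Rel homology domain, through which they bind DNA. RELA, REL and RELB carry an activation domain, while NFKB1 and NFKB2 encode precursors that are shortened to the DNA-binding proteins p50 and p52. In resting cells IkB proteins, among them IkB-alpha from NFKBIA and IkB-epsilon from NFKBIE, hold the dimers in the cytoplasm until a kinase complex marks the inhibitors for destruction. The freed dimers switch on genes of inflammation and survival and also the genes grouped here as feedback inhibitors. Among these are NFKBIA, NFKBIE, the ubiquitin-editing enzyme A20 from TNFAIP3 and the ubiquitin ligase cIAP2 from BIRC3. NFKBIZ encodes IkB-zeta, an inducible nuclear IkB protein that restrains some NF-kB genes and is needed for others.

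The stretches just upstream of the members' transcription starts are given first, because kappa-B sites there are the textbook route by which genes respond to NF-kB. The 250 bases before each RefSeq start (GRCh38.p14) were searched on both strands for the kappa-B consensus. Windows were available for 8 of the 10 genes, 13 windows in all, since several genes have more than 1 start, and NFKBIE and RELB were not searched. The consensus was matched in 9 of the 13 windows, 5 of 5 for 4 inhibitor genes (2 for NFKBIZ and 1 each for NFKBIA, TNFAIP3 and BIRC3) and 4 of 8 for 4 subunit genes, and in 5.21% of the 35116 windows of all genes in the same table. By gene, 7 of the 8 held a match, all but RELA, so the 2 classes differed by gene only in RELA. Windows of the same gene are not separate genes, and no share by gene was computed over all genes. The inhibitors were listed as genes that NF-kB switches on, so many matches among them are not independent support for anything. A match is a run of letters and not an observed binding site. In the following windows, chosen to set members that differ in their response beside each other, capitals mark every base within a match to the consensus:
NFKBIZ at chr3:101827740-101827989, plus strand: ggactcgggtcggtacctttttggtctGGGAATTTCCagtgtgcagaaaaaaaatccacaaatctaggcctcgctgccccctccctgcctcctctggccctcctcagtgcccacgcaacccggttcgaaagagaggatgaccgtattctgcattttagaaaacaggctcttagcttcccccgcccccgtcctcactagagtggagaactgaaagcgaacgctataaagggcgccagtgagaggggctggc
TNFAIP3 at chr6:137867009-137867258, plus strand: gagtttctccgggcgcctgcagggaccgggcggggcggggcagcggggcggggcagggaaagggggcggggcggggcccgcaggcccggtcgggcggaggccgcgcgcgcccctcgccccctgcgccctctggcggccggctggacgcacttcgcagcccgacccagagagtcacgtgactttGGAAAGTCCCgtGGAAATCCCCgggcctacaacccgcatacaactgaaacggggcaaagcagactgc
NFKBIA at chr14:35404750-35404999, minus strand: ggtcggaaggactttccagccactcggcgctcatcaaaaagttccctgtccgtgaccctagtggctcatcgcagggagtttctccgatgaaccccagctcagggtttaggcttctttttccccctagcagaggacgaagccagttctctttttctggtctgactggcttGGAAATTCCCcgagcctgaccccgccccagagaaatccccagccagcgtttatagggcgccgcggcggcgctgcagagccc
NFKB1 at chr4:102501109-102501358, plus strand: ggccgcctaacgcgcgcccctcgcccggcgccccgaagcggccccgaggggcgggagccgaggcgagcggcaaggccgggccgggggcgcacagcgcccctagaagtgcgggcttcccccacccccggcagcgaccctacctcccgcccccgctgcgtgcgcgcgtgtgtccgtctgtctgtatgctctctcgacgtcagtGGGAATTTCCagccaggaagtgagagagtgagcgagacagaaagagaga
REL at chr2:60881324-60881573, plus strand: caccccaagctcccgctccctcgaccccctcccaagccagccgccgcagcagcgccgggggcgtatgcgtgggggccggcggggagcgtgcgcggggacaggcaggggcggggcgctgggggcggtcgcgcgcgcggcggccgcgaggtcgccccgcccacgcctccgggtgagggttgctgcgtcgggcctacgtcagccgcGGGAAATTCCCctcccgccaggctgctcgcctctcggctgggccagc
NFKBIZ, the member with the lowest signal relative to control, and the subunit gene NFKB1 hold the same letters, GGGAATTTCC, starting 223 bases (NFKBIZ) and 49 bases (NFKB1) upstream of the first of their 2 starts. The window of the second NFKBIZ start held GGGGTTTCCC, and that of the second NFKB1 start held no match. TNFAIP3 holds 2 matches close together, GGAAAGTCCC and GGAAATCCCC, 67 and 55 bases upstream. NFKBIA and REL share GGAAATTCCC, 81 bases (NFKBIA) and 46 bases (REL) upstream. On the opposite strand GGAAATTCCC reads GGGAATTTCC, so NFKBIZ, NFKB1, NFKBIA and REL all hold the same letters on 1 strand or the other. Of these genes NFKBIZ, NFKB1 and NFKBIA fell in the knockdown arrays and REL did not pass the test. The consensus was not found in either RELA window, and NFKB2 held it upstream of 2 of its 3 starts.

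Among the 4 measured feedback inhibitors 3 fell in the knockdown arrays (NFKBIZ, TNFAIP3 and NFKBIA), 0 rose and NFKBIE did not pass the test. Among the 5 subunits 2 fell (NFKB1 and RELB), 0 rose, and RELA, REL and NFKB2 did not pass. Over all genes 4.63% were called lower and 6.36% higher. The median log2 fold change, knockdown minus control, was -0.52 for the inhibitors and -0.02 for the subunits, against -0.01 for all genes. A lower level in each cell and fewer expressing cells cannot be told apart in RNA from a whole culture. The call of RELB, and under some settings those of NFKB1 and NFKBIA, depended on the settings as described below.

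**Figure D1:**
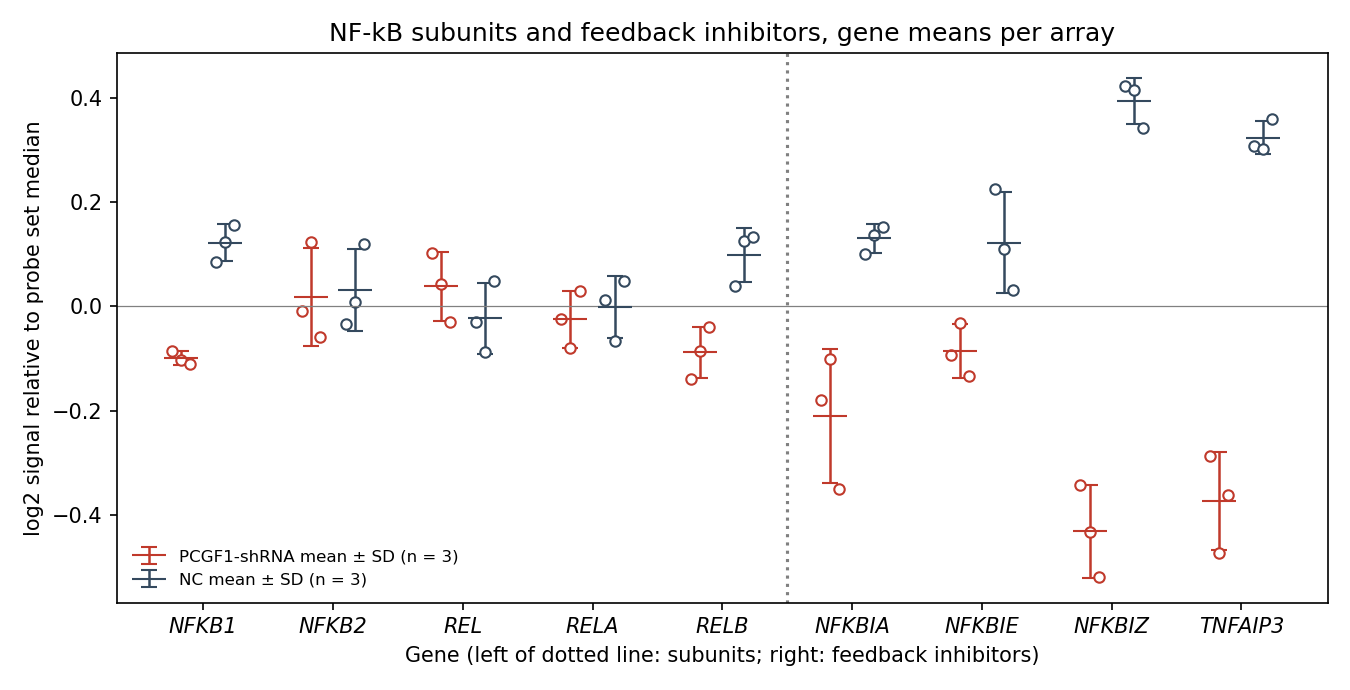
Log2 signal relative to the probe set median (vertical axis) of each member gene on each array, knockdown left of control within each gene. Points are arrays, and bars are the mean and SD of 3. All 4 inhibitors and the subunits NFKB1 and RELB have every knockdown array below every control array, and for NFKB2, REL and RELA the groups overlap.

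NFKBIZ showed the lowest fold change of the members. In the knockdown arrays its signal was -0.34, -0.43 and -0.52 (replicates 1 to 3, an order kept below), against 0.42, 0.42 and 0.34 in the control arrays. The gap of 0.69 between the highest knockdown and the lowest control array was wider than the range within either group, 0.18 in knockdown and 0.08 in control arrays. Knockdown arrays averaged -0.43 ± 0.09 and control arrays 0.39 ± 0.04 (SD, n = 3 each). With a log2 fold change of -0.82 ± 0.05 (SE, limma, adjusted p = 0.000262), knockdown cells had 56.5% of the control level (95% interval 51.8 to 61.5%). NFKBIZ stood at place 12 from the lowest among 18132 genes. The value rests on 1 probe set.

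TNFAIP3, whose product A20 removes and edits the ubiquitin chains that carry the signal to the kinase complex, came next. Averaged over 2 probe sets its signal was -0.29, -0.47 and -0.36 in the knockdown arrays, against 0.31, 0.30 and 0.36 in the control arrays. The groups did not overlap, with a gap of 0.59. This gave a log2 fold change of -0.70 ± 0.05 (SE, limma, adjusted p = 0.000418), or 61.7% of the control level (95% interval 56.6 to 67.2%), at place 21 from the lowest. Both probe sets were lower but differed in size and in spread. The _s_at probe set read -0.31, -0.65 and -0.46 in the knockdown arrays, against 0.31, 0.34 and 0.37 in the control arrays. The _a_at probe set read -0.26, -0.30 and -0.27 in the knockdown arrays, against 0.31, 0.26 and 0.35 in the control arrays. The low second knockdown array therefore came from the _s_at probe set, whose knockdown SD was 0.17, compared with 0.02 for the _a_at probe set. The log2 fold change was -0.81 ± 0.08 for the _s_at and -0.58 ± 0.05 for the _a_at probe set (SE), and the difference between them was not tested.

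NFKBIA, the classical IkB that is degraded and made anew within each round of signalling, fell less. Its signal was -0.18, -0.10 and -0.35 in the knockdown arrays, against 0.10, 0.14 and 0.15 in the control arrays. The groups did not overlap, but the knockdown arrays were spread over 0.25 and the control arrays over 0.05. NFKBIA had a log2 fold change of -0.34 ± 0.06 (SE, limma, adjusted p = 0.0148), or 79.0% of the control level (95% interval 71.3 to 87.5%), at place 155 from the lowest. All 3 probe sets were lower and passed the test over all probe sets, with log2 fold changes from -0.36 to -0.31, and all 3 had their lowest value in knockdown replicate 3. The call was lost without control replicate 2 (adjusted p = 0.0514) or control replicate 3 (adjusted p = 0.0535), with log2 fold changes of -0.34 and -0.33.

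NFKBIE, which encodes the slower IkB-epsilon, did not pass the test. Its signal was -0.09, -0.03 and -0.13 in the knockdown arrays, against 0.23, 0.11 and 0.03 in the control arrays. The groups were apart by 0.06, less than the range of 0.19 among the control arrays. NFKBIE had a log2 fold change of -0.21 ± 0.06 (SE, limma, adjusted p = 0.0547). It passed under 2 of 13 alternatives, after quantile normalization (adjusted p = 0.0472) and without control replicate 3 (adjusted p = 0.0499). Under the other 11 it did not pass, with adjusted p up to 0.155. The value rests on 1 probe set, which did not pass in the fit to all probe sets (adjusted p = 0.093). Averaged over the 4 inhibitors, the knockdown arrays read -0.23, -0.26 and -0.34 and the control arrays 0.26, 0.24 and 0.22. Knockdown replicate 3 was the lowest of the 6 arrays for NFKBIA, NFKBIE and NFKBIZ, and knockdown replicate 2 for TNFAIP3.

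Of the subunits, NFKB1 had the tightest groups. Its signal was -0.09, -0.10 and -0.11 in the knockdown arrays, against 0.09, 0.12 and 0.16 in the control arrays. The groups were apart by 0.17, more than the range within either, 0.03 in knockdown and 0.07 in control arrays. NFKB1 thus had a log2 fold change of -0.22 ± 0.04 (SE, limma, adjusted p = 0.0108), or 85.8% of the control level (95% interval 80.7 to 91.2%). The value rests on 1 probe set, which passed in the fit to all probe sets too (adjusted p = 0.0325). It did not pass when each gene was represented by its most variable probe set (adjusted p = 0.0542). With 1 probe set NFKB1 had the same fold change there. Its SE was larger (0.058 against 0.038), since limma shares information on variance across genes.

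RELB, the partner of p52 in the non-canonical branch, fell by a similar amount with less certainty. Its signal was -0.14, -0.09 and -0.04 in the knockdown arrays, against 0.04, 0.13 and 0.13 in the control arrays. The gap of 0.08 between the groups was no wider than the range within them, 0.10 in knockdown and 0.09 in control arrays. RELB was at a log2 fold change of -0.19 ± 0.05 (SE, limma, adjusted p = 0.0381), or 87.8% of the control level. The same single probe set did not pass in the fit to all probe sets (adjusted p = 0.0785). Leaving out any 1 of knockdown replicates 1 to 3 or control replicates 2 and 3 also ended the call (adjusted p 0.0619 to 0.116). So did the most variable probe set per gene (0.110) and omission of _s_at and _x_at probe sets (0.0530). Under these last 2 settings RELB kept its probe set and its fold change of -0.19. The SE was larger (0.063 and 0.049 against 0.046), since limma shares information on variance across genes.

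RELA, the main activating subunit, showed no difference beyond the spread between arrays. Its signal was -0.02, -0.08 and 0.03 in the knockdown arrays, against 0.01, -0.07 and 0.05 in the control arrays. The groups overlapped almost wholly. RELA was at -0.02 ± 0.05 (log2 fold change and SE, limma, adjusted p = 0.808), and the 95% interval of its level ran from 91.1 to 106% of control. Its 3 probe sets lay between -0.08 and 0.01.

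NFKB2 read -0.01, 0.12 and -0.06 in the knockdown arrays, against -0.03, 0.01 and 0.12 in the control arrays, so the groups overlapped. NFKB2 thus had a log2 fold change of -0.01 ± 0.06 (SE, limma, adjusted p = 0.918), with a 95% interval of 89.9 to 109% of the control level. REL, which encodes c-Rel, a subunit best known from lymphocytes, read 0.10, 0.04 and -0.03 in the knockdown arrays, against -0.03, -0.09 and 0.05 in the control arrays. It was the only member with a positive log2 fold change, 0.06 ± 0.05 (SE, limma, adjusted p = 0.512), and its groups overlapped as well. The 95% interval for REL was 96.0 to 113% of the control level. These 3 genes stood at places 7917 (RELA), 8699 (NFKB2) and 13387 (REL) from the lowest.

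**Figure D2:**
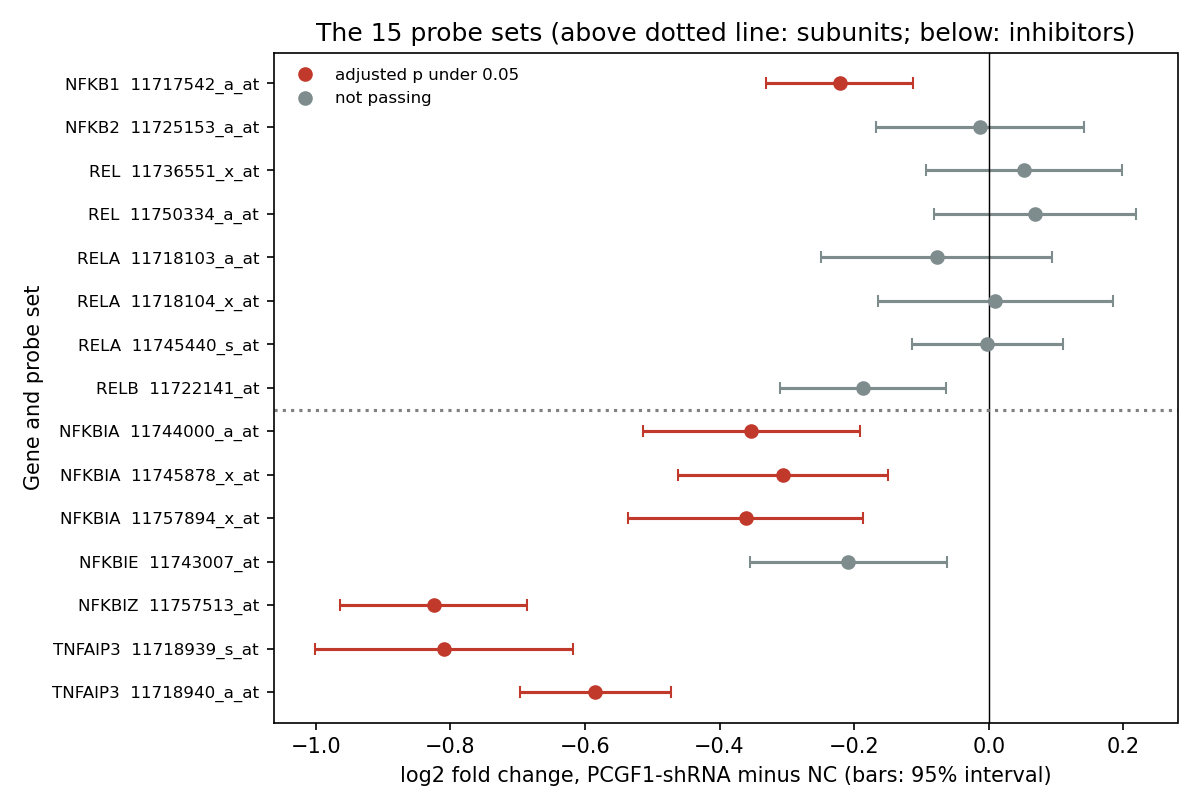
Log2 fold change, knockdown minus control, of the 15 probe sets with 95% intervals (horizontal axis), subunits above the dotted line and inhibitors below it. Red marks probe sets with an adjusted p under 0.05 over all 49293 probe sets. All 7 inhibitor probe sets lie below 0 and 6 passed, while 1 of the 8 subunit probe sets passed.

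Counted by probe set, 7 of the 15 were called lower and 0 higher, where 2.94% of all probe sets were called lower and 4.30% higher. By gene, every knockdown array lay below every control array for 6 of the 9 members, where this held for 15.5% of all genes. The opposite separation held for 0 members and for 17.1% of all genes. A negative log2 fold change was found for 8 of the 9 members and for 53.4% of all genes. In the order of fold changes the inhibitor NFKBIE lay between the subunits NFKB1 and RELB, within 0.03 of both and within the standard error of each, so the classes were not fully apart.

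**Figure D3:**
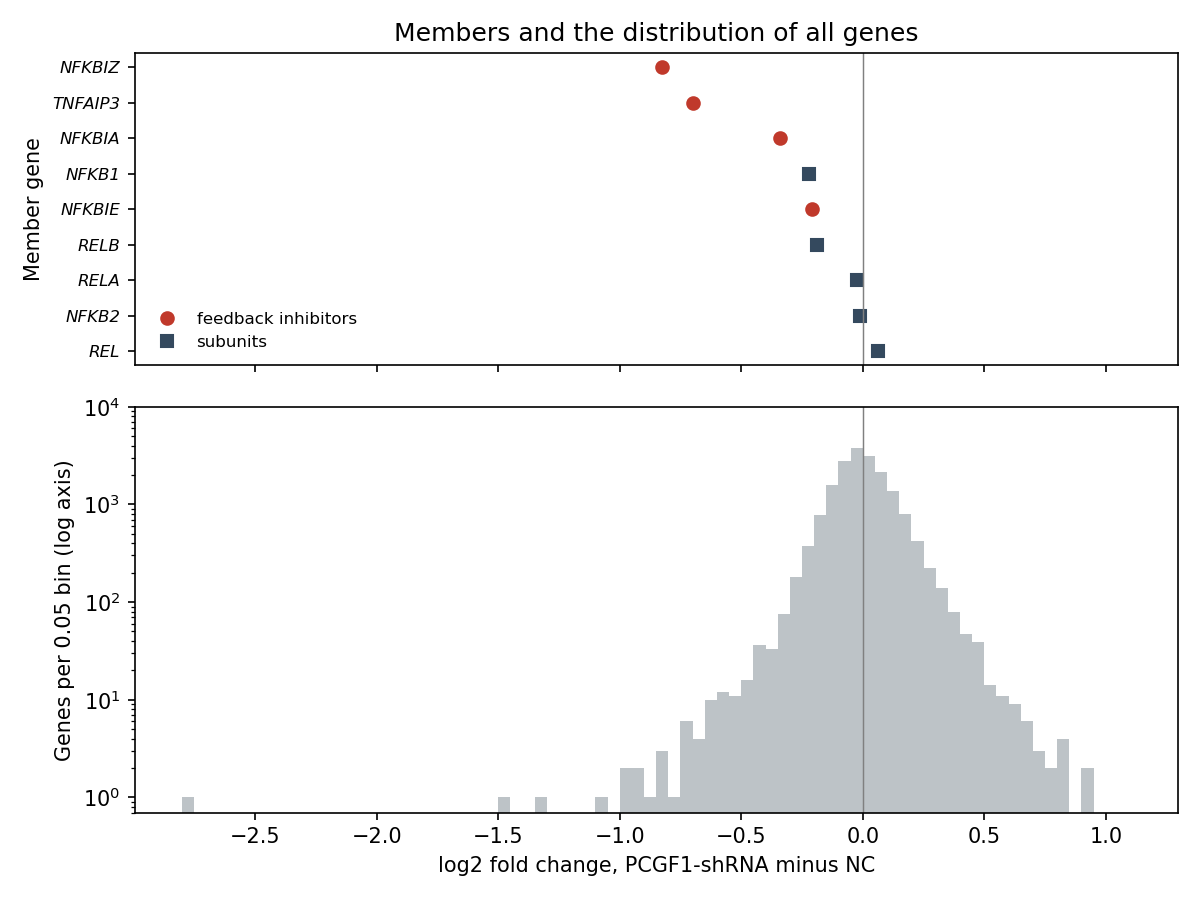
Log2 fold change, knockdown minus control, of the 9 members (upper panel, inhibitors as circles and subunits as squares) above the histogram of all 18132 genes (lower panel, log axis). NFKBIZ at -0.82 and TNFAIP3 at -0.70 lie in the sparse lower tail, and RELA, NFKB2 and REL lie in the centre.

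Genes with the most similar profile were sought by the root mean square difference over the 6 arrays, in log2 units, for the inhibitor and the subunit with the largest fold change. The 5 nearest to NFKBIZ were DUSP6 (0.057), a phosphatase acting on ERK, TFPI2 (0.059), a serine protease inhibitor, TMEM50A (0.066), IGFBP1 (0.074), a binding protein for insulin-like growth factors, and GRB14 (0.081), an adaptor of receptor tyrosine kinases. In all 12 genes lay within 0.1 of NFKBIZ, and TNFAIP3 was at place 11 of them with 0.097. Within 0.1 of NFKB1 lay 4090 genes, but NFKB1 itself ran only from -0.11 to 0.16. RELA and NFKB2, which did not pass the test, were at 0.11 and 0.12 from it. The counts within 0.1 thus depend on the size of a gene's change and do not compare how common the 2 profiles are. The 5 nearest to NFKB1 were TRIP13 (0.0084), SERPINB8 (0.014), ACTL6A (0.015), NUP35 (0.015) and RPE (0.016), and RELB was at place 178 with 0.043.

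The rest of the pathway was followed in lists ordered by role, 75 measured genes of 80. Of these 4 rose and 14 fell, and 57 did not pass, and 9 of the fallen genes were in the list of secreted targets. Over all genes 6.36% were called higher and 4.63% lower. Small counts in single lists below are a description beside these shares and are not read as a result about the list. Among 10 receptors upstream of NF-kB 2 rose and 0 fell. TNFRSF1A, the main TNF receptor, had a log2 fold change of 0.24 ± 0.04 (SE, limma, adjusted p = 0.0115), but when _s_at and _x_at probe sets, whose probes can match other transcripts, were omitted it was 0.02 and did not pass (adjusted p = 0.891), and the most variable of its 4 probe sets was at 0.37 (adjusted p = 0.0182). CD40, another receptor of that family, was at 0.22 ± 0.04 (adjusted p = 0.0144), a call lost without knockdown replicate 3 (adjusted p = 0.0533) or control replicate 2 (adjusted p = 0.0514). Its most variable probe set did not pass either (adjusted p = 0.0678).

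Among 13 adaptors and ubiquitin ligases 0 rose and 1 fell. IRAK2, a kinase-like adaptor of interleukin-1 and Toll-like receptors, read -0.13, -0.12 and -0.10 in the knockdown arrays, against 0.16, 0.17 and 0.09 in the control arrays, a log2 fold change of -0.26 ± 0.04 (SE, limma, adjusted p = 0.00717). Its relative IRAK1 was at 0.17 and did not pass (adjusted p = 0.0683), except without knockdown replicate 2 (0.21, adjusted p = 0.0463).

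Among 12 kinases upstream of NF-kB 1 rose and 1 fell. CHUK, which encodes IKK-alpha, a catalytic subunit of the IkB kinase complex, read -0.13, -0.26 and -0.37 in the knockdown arrays, against 0.13, 0.14 and 0.19 in the control arrays. Its log2 fold change of -0.41 ± 0.06 (SE, limma, adjusted p = 0.00717, 1 probe set) was below those of all subunits and of NFKBIA. The other members of that complex did not pass. IKBKB (IKK-beta) was at -0.03 (adjusted p = 0.754), over 11 probe sets that ran from -0.20 to 0.17, and IKBKG, the regulatory subunit, was at -0.12 (adjusted p = 0.0787), with all 8 probe sets lower. MAP3K14, the kinase NIK of the non-canonical branch, rose by 0.31 ± 0.08 (SE, adjusted p = 0.0390), and this call was lost when any array other than knockdown replicate 1 was left out (adjusted p 0.0546 to 0.118). It read 0.01, 0.28 and 0.25 in the knockdown arrays, against -0.04, -0.16 and -0.20 in the control arrays. These values average 2 probe sets that differed, at 0.11 and 0.52, and the more variable of them gave 0.52 (adjusted p = 0.00938).

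The remaining IkB proteins and other brakes of the pathway mostly did not pass, with 0 of 15 called higher and 1 lower. TNIP1, which helps A20 bind its targets, was at -0.15 ± 0.04 (SE, limma, adjusted p = 0.0465), with all 8 probe sets lower. That call was lost without any of the 6 arrays (adjusted p 0.0764 to 0.144), after quantile normalization (0.0503), with its most variable probe set (-0.25, adjusted p = 0.137) and with _s_at and _x_at probe sets omitted (0.211). NFKBIB, the third classical IkB, was at 0.03, the nuclear IkB genes BCL3 and NFKBID were at 0.03 and -0.12, the deubiquitinase gene CYLD was at 0.07 and ZC3H12A, an RNase that degrades inflammatory transcripts, was at -0.18 (adjusted p 0.104 to 0.758). The sign for NFKBIB and BCL3 turned under other choices of probe sets.

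The last lists held targets outside the feedback loop. Of 9 survival and surface targets 0 rose and 1 fell, namely IER3, a stress-inducible survival gene, at -0.56 ± 0.04 (SE, limma, adjusted p = 0.000436), and BCL2A1, an anti-apoptotic BCL2 relative, was at -0.22 (adjusted p = 0.0534). Without control replicate 3 BCL2A1 passed, at -0.28 (adjusted p = 0.0449). Of 11 genes listed as secreted targets 9 fell, with CXCL8 and IL1B lowest at -2.76 and -1.48. The 9 include PTGS2 (-0.64), which encodes an enzyme that is not itself secreted. PLAU, the urokinase gene, rose by 0.39 ± 0.05 (SE, adjusted p = 0.00302). Of 6 measured genes that need Nfkbiz for their induction in mouse macrophages 2 fell and 0 rose. One of these, IL6, is in the list of secreted targets too and was already counted there. CSF3, a granulocyte growth factor, was at -0.98 ± 0.05 (SE, adjusted p = 0.000149), and IL6 was at -0.43 ± 0.05 (SE, adjusted p = 0.00185) over 2 probe sets that disagreed, at -0.99 and 0.14. The other 4 did not pass (adjusted p 0.129 to 0.678). These lists were drawn up with earlier results of these data known.

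**Figure D4:**
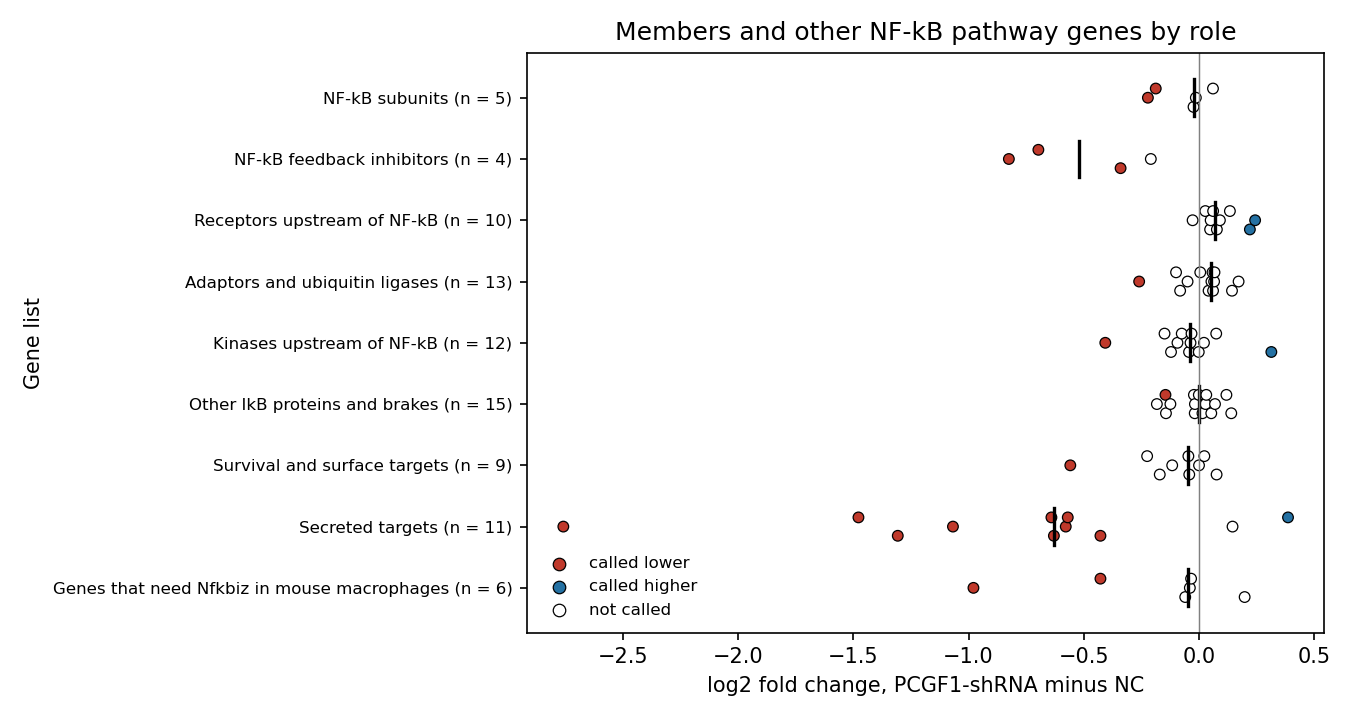
Log2 fold change, knockdown minus control, of each measured gene by role (horizontal axis), with a vertical stroke at each list's median. Filled points passed at an adjusted p under 0.05, red lower and blue higher. The inhibitors and the list of secreted targets, which includes the enzyme gene PTGS2, have medians of -0.52 and -0.63. The medians of the other lists lie between -0.05 and 0.07.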

How the data were processed

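Total RNA of U87 cells was hybridised to 6 Affymetrix arrays, 3 per group as the sample titles give them. RMA, with no version given, is the method that the submitters' processing notes name for the authors' values, and the deposited table holds 1 value per probe set and array, taken here as log2 because RMA gives log2 values. The values show that each probe set was also centred on the median of its 6 arrays (largest departure 4.85e-07), a step not given in the sources used here, so no brightness filter was possible. Array medians lay between -0.00238 and 0.00399, and no further normalization was applied. Control probe sets (102) were set aside. Of the 49293 tested, 44988 had 1 gene symbol, 1832 several and 2473 none by the platform's annotation, which may be out of date. Gene IDs of 44961 were found in the RefSeq table of GRCh38.p14, and 0 symbols differed.

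A gene's value is the mean of its single-symbol probe sets. Groups were compared by limma (version 3.58.1, R 4.3.3) through lmFit and eBayes with no covariates, tested on simulated data, with Benjamini-Hochberg adjustment over all 18132 genes or all 49293 probe sets, and calls at an adjusted p under 0.05. Precision is limited by how few arrays there are. Members, gene lists and tests were chosen with earlier results of these data known. Genes outside the members were named by a rule: the 2 called genes with the largest rise and fall in each list, or the 2 largest changes where fewer than 2 were called, plus 8 core pathway genes and the 5 nearest profiles. Lists of 8 astroglial, 9 leukocyte and 8 endothelial or epithelial markers were counted as a check, the last with 0 called higher and 0 lower. Alternatives were quantile normalization, median centring, array weights, a replicate block, the most variable probe set per gene, omission of _s_at and _x_at probe sets, robust moderation and leaving out each array.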

Additional observations from a re-analysis of the deposited data

How the results depend on the processing

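NFKBIZ and TNFAIP3 were called lower under all 13 alternatives, with log2 fold changes from -0.87 to -0.78 and from -0.81 to -0.58. The direction was also the same under all 13 for NFKB1, RELB, NFKBIA, NFKBIE and REL. Leaving out each array in turn gave 3 to 5 members called lower (5 with all arrays), 3 of them without control replicate 2, and 0 called higher. It moved NFKB2 between -0.065 and 0.031 and RELA between -0.056 and 0.0043, across 0, along with NFKBIB (-0.0043 to 0.075), BCL3 (-0.014 to 0.051) and IKBKB (-0.080 to 0.0059). When each gene was represented by its most variable probe set, 3 members were called lower, NFKBIZ, TNFAIP3 and NFKBIA, and NFKBIB was at -0.0041. Without the _s_at and _x_at probe sets BCL3 was at -0.026 and RELB did not pass (adjusted p = 0.0530), and IER3 had no value.

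Replicate numbers showed no visible pairing of the arrays. Deviations from the group means correlated across genes at -0.05 to 0.01 for same-numbered and -0.01 to 0.05 for different-numbered arrays. Correlations near 0 cannot settle whether same-numbered arrays were prepared together, and the sample titles do not say. A fit with the replicate block called 596 genes higher and 440 lower, against 1154 and 840 without it, and 909 and 561 probe sets, against 2120 and 1451. The block ended the calls of RELB (adjusted p = 0.0598), MAP3K14 (0.0910) and TNIP1 (0.108), and BCL2A1 passed with it (0.0385), so 14 pathway genes were called lower with and without the block. Leaving out 1 array gave 553 to 812 genes higher and 395 to 590 lower, 808 to 1308 probe sets higher and 498 to 745 lower, and 2 to 4 pathway genes higher (4 with all arrays). Fewer arrays leave fewer degrees of freedom, and so does the replicate block. How far this accounts for the fewer calls was not tested, nor was the cause of the other shifts. Centred values give no signal over background.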
